A study of Mus musculus with 2 samples.

Results

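The cells described here are macrophages with the highest joint level of 7 genes: Hmox1, Fabp5, Pf4, Sdc1, Ptgr1, Cd200 and F13a1. The cells were picked by their own expression. In the mouse genome build mm10 the 3 genes that weigh most lie at chr8:75093621-75100589 (Hmox1), chr3:10012548-10016607 (Fabp5) and chr5:90772435-90773383 (Pf4), all on the plus strand and coding for protein. Barcodes were kept with at least 200 genes, at most 10% mitochondrial UMIs (unique molecular identifiers, each of which marks 1 captured RNA molecule), under 2 UMIs of the mCherry construct and at least 1 UMI of Csf1r, the receptor gene of macrophage growth factor. These base cells were ranked by the mean of ln(1 + UMIs per 10000) over the 7 genes, and the 1000 highest of both libraries together are the members. That is 1000 of 9655 base cells and of 13837 barcodes in all, with 231 members in the adult and 769 in the young library. The other 8655 base cells are the comparison.

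The libraries come from mice aged 24 weeks (adult) and 4 weeks (young), and the labels mark both as d7. In each, tumours of several mice were pooled, cells positive for the red fluorescent protein mCherry were sorted, and the 10x Genomics v2 chemistry for 3' ends gave 1 library. The labels used here do not name the tumour, the strain or the cells that carried the mCherry gene. Each age is 1 library, so an effect of age and one of the pool, sort or library cannot be told apart, and no test between ages exists. All values are descriptions, and all 95% intervals cover counting error only.

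Heme oxygenase 1, the product of Hmox1, splits heme into iron, carbon monoxide and biliverdin, and macrophages use it when they clear red cells or meet oxidants. Its gene is a textbook target of NRF2, the transcription factor that turns on glutathione and thioredoxin enzymes through the antioxidant response element. Fabp5 encodes a carrier of fatty acids in the cytosol. Macrophages of tumours can take up debris and lipid, and they can also present peptides on MHC class II to CD4 T cells.

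Short promoter stretches are shown for 3 genes that were higher in the members and hold a match to the core of the antioxidant response element, because they let the element be seen in the genes named below. Gclm and Prdx1 are in the list of NRF2 targets, and Mt2 is a metallothionein gene. The motif searched was TGACNNNGC on both strands, which overlaps the AP-1 motif TGACTCA. Sequences are from RefSeq on GRCm38.p6, the build also called mm10, and are printed in the direction of the gene with the match in capitals. The matches begin 134, 133 and 79 bases before the annotated starts of Gclm, Prdx1 and Mt2, and the printed stretches lie on the plus strand at chr3:122245398-122245456, chr4:116685441-116685499 and chr8:94172514-94172572. In Gclm and Prdx1 the match reads on the opposite strand, so its reverse complement is in capitals.
Gclm: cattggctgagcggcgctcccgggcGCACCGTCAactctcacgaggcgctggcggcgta
Prdx1: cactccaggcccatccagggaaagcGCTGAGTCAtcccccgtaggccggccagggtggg
Mt2: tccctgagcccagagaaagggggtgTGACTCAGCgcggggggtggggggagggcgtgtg

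The match is a run of letters, not a shown binding site. Promoter windows ran from 250 bases before to 50 after each start, and 3781 of 27025 genes (13.99%) held it. In the NRF2 list, 8 of 17 genes with a window held it (47.1%), which was 3 of the 5 that were higher in the members and 5 of the 12 that were not. Of the score genes with a window, 0 of 5 held it, and of the 15 genes that led the difference, 2 of 14 did. A window without it says only that these letters are missing there.

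The adult library held 6279 barcodes and 70988070 UMIs, and the young library held 7558 barcodes and 84862471 UMIs. Filters on genes and mitochondrial UMIs removed 505 adult and 468 young barcodes, the mCherry limit 632 and 670, and the need for Csf1r 877 and 1030. Members had median depths of 9567 UMIs in the adult and 9652 in the young library, close to the 10096 and 10441 of the other base cells. Median mitochondrial shares were 1.55% in adult and 1.26% in young members, against 1.83% and 1.62% in the others. Doublets were not removed, and 111 barcode sequences occurred in both libraries, 5 of them on members and 0 on members of both.

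The 7 score genes set the members apart by construction, so their values describe the choice and support nothing. Hmox1 had 2101 CPM (UMIs per 1000000 summed UMIs) in adult members and 171 CPM in the other adult base cells, and 2628 CPM in young members and 318 CPM in the other young base cells. Fabp5 had 1732 CPM in adult members and 174 CPM in adult others, and 2753 CPM in young members and 265 CPM in young others. Pf4, the gene of the chemokine platelet factor 4, had 3021 CPM in adult members and 112 CPM in adult others, and 1415 CPM in young members and 62.7 CPM in young others. In each library, these 3 genes were over 8-fold higher in members than in others. Hmox1 made up 29.5%, Fabp5 29.8% and Pf4 17.8% of the members' summed score.

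The other 4 score genes added less to the score. Sdc1, which encodes the heparan sulfate proteoglycan syndecan 1, had 135 CPM in adult members and 37.3 CPM in adult others, and 183 CPM in young members and 23.2 CPM in young others. F13a1, the gene of the A subunit of clotting factor XIII, had 203 CPM in adult members and 32.1 CPM in adult others, and 169 CPM in young members and 29.6 CPM in young others. Ptgr1, an enzyme that inactivates prostaglandins and leukotriene B4, reached 86.7 CPM in adult members and 14.9 CPM in adult others, and 100.4 CPM in young members and 12.6 CPM in young others. Cd200, a surface ligand that restrains myeloid cells through its receptor, had 31.4 CPM in adult members and 2.75 CPM in adult others. In the young library it had 64.4 CPM in members and 4.82 CPM in others. Only 9.96% of adult and 21.6% of young members held a Cd200 UMI. Of the 78 UMIs in adult members, 32 came from 3 cells with genes of mature dendritic cells, described below.

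**Figure D1:**
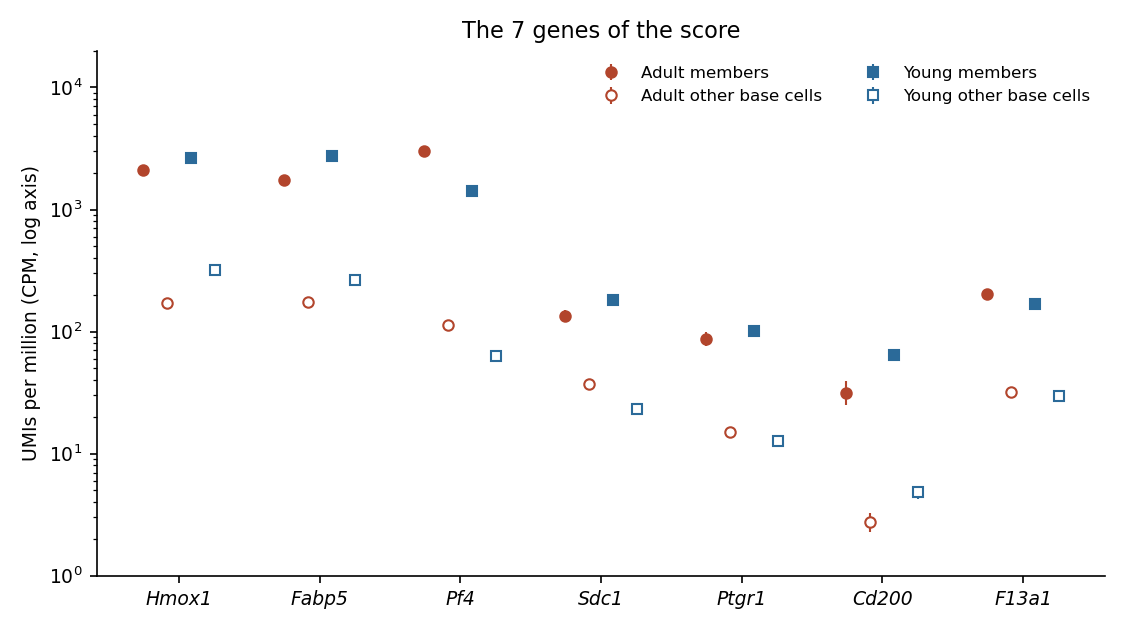
Summed level of each score gene in CPM (log axis) in adult members, adult other base cells, young members and young other base cells; bars are 95% Poisson intervals. All 7 genes are higher in members, as the choice fixes, with Pf4 at 3021 CPM in adult and 1415 CPM in young members.

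Hmox1 UMIs were present in 94.4% of adult members and 56.97% of adult others, and in 98.4% of young members and 74.4% of young others. With every cell thinned to 4000 UMIs, which left out 18 adult and 45 young members and 223 adult and 316 young others, the shares were 84.0% of adult members and 35.4% of adult others, and 93.6% of young members and 51.8% of young others. As a gauge of free RNA, cells without Csf1r that held UMIs of at least 2 of the T cell genes Cd3d, Cd3e, Cd3g and Trbc2 carried Hmox1 in 13.7% of 102 adult and 17.5% of 40 young cells, at medians of 4123.5 and 5677.5 UMIs. Fabp5 was present in 24.5% and 30% of those cells, against 90.5% of adult and 96.2% of young members. Pf4 was present in 7.84% and 5% of them, against 69.7% of adult and 64.4% of young members. These members were deeper than the T cells. Thinned to 4000 UMIs, 55 adult and 27 young T cells remained. They held Hmox1 in 10.9% and 14.8%, Fabp5 in 27.3% and 18.5%, and Pf4 in 3.64% and 3.70%. Thinned members held Pf4 in 60.1% of adult and 53.3% of young cells. A second set without Csf1r held 20 or more mCherry UMIs, at medians of 28924 adult and 25044 young UMIs. Fabp5 was present in 86.4% of its 272 adult and 92% of its 200 young cells. Thinned to 4000 UMIs, the Fabp5 shares were 56.8% and 59.3%, against 82.6% of adult and 91.9% of young members. Fabp5 had 357 and 312 CPM in this set, above the 174 and 265 CPM of adult and young others.

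Few members carried all 7 genes. With 4 of the genes there were 374 members, with 5 there were 278, with 3 there were 225, and with all 7 there were 12. Fabp5 contributed most in 398 members, Hmox1 in 363 and Pf4 in 207, so members reached the score through different genes. The 50 members just inside the limit had scores of 0.946 to 0.968, and the 50 cells just outside had 0.927 to 0.945. The scores on the 2 sides of the limit thus adjoin each other.

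To see how far the genes go together, each was left out in turn and the 1000 cells highest in the other 6 were taken. Left out, Pf4 was 6.97-fold higher in those cells than in the other adult base cells and 7.64-fold higher in the young library. Left out, Hmox1 was 5.39-fold higher in the adult and 4.86-fold higher in the young library, and Fabp5 3.91-fold and 5.8002-fold. The smallest of the 14 values was Sdc1 in the adult library, at 1.73-fold (interval 1.48 to 2.02), against 4.15-fold (3.83 to 4.49) in the young library. The genes were proposed together from these data, so the values describe and do not test the set.

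The macrophage label was checked against 12 macrophage genes, of which Csf1r was required by the rule. All 12 were above 10 CPM in both libraries' members. Cd68, a lysosomal glycoprotein, had 759 CPM in adult members and 438 CPM in adult others, and 817 CPM in young members and 505 CPM in young others. Adgre1, which encodes the macrophage surface protein F4/80, had 123 CPM in adult members and 84.0 CPM in adult others, and 101 CPM in young members and 103 CPM in young others. Lyz2, the lysozyme gene of myeloid cells, had 6261 CPM in adult members and 5747 CPM in adult others, and 5302 CPM in young members and 7234 CPM in young others. Mertk was the lowest in adult members, at 11.7 CPM, with 21.5 CPM in young members. By the rule for lists given below, 3 of the 12 were higher in members than in others and 0 lower. Of all 6751 genes of that rule, 4.38% were higher and 2.98% lower. The members thus carry these macrophage genes, mostly near the levels of the other base cells, and the check does not set them apart from those.

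Some score genes are also known from other cells, so lists of their markers were read. Sdc1 marks plasma cells, and of 12 plasma and B cell genes 10 had 0 UMIs in all 1000 members, Jchain, Mzb1, Igkc and Tnfrsf17 among them; the list summed to 8.06 CPM in adult and 5.73 CPM in young members, against 16.4 and 10.1 CPM in the others. Pf4 is abundant in platelets, and of 12 platelet genes Gp9, Gp1ba, Gp1bb, Gp5 and Tubb1 had 0 UMIs in all members. The platelet list summed to 32.2 CPM in adult and 30.3 CPM in young members, against 9.90 and 10.3 CPM in the others. Its measured gene was Ppbp, another platelet chemokine, which lies 2371 bases from Pf4 on chromosome 5 of mm10. Ppbp had 19.3 CPM in adult members and 0.473 CPM in adult others, and 19.98 CPM in young members and 0.215 CPM in young others, and it came from 9 adult and 12 young members; its part in the Pf4 values was not tested. Erythroid genes summed to 0.806 CPM in adult and 0.127 CPM in young members, against 0.0450 and 0.0975 CPM in the others, with Alas2 at 0 UMIs.

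Among the remaining lists, T and NK cell genes were lower in members, at 5.64 CPM in adult and 5.98 CPM in young members, against 34.2 and 53.8 CPM in the others. Neutrophil genes summed to 114 CPM in adult and 224 CPM in young members, against 242 and 171 CPM in the others, with Ly6g and Camp at 0 UMIs in members. Endothelial genes, mostly Pecam1, which macrophages also express, came to 52.8 CPM in adult and 66.6 CPM in young members, against 37.6 and 46.2 CPM in the others, and Cldn5, Tek and Tie1 were at 0. Mast cell genes summed to 1.61 and 0.127 CPM in adult and young members, against 1.01 and 0.780 CPM in the others, and fibroblast and tumour genes to 8.87 and 5.60 CPM, against 23.2 and 4.45 CPM. Dendritic cell genes summed to 151 CPM in adult and 32.8 CPM in young members, against 47.9 and 44.9 CPM in the others, and are taken up again with the adult members below.

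Outside the score, 48 of 2542 genes (1.89%) had at least 2 times the level of the other base cells in members of both libraries, and 10 (0.393%) had at most 0.5 times that level. Genes entered at 50 CPM or more in at least 1 of the 4 sums, and ratios used log2(CPM + 5). The higher genes included metallothioneins, chemokines, matrix proteases and enzymes of glutathione and lysosomes, and the lower ones included the MHC class II genes H2-DMb1 and H2-DMb2, the interferon-gamma chemokine Cxcl9, the cyclins Ccnd1 and Ccnd2 and the monocyte receptor Ccr2. The members were chosen in these same cells, so this is a description with no test and the shares bear on nothing. With a limit of 1.5-fold the counts were 118 and 55.

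**Figure D2:**
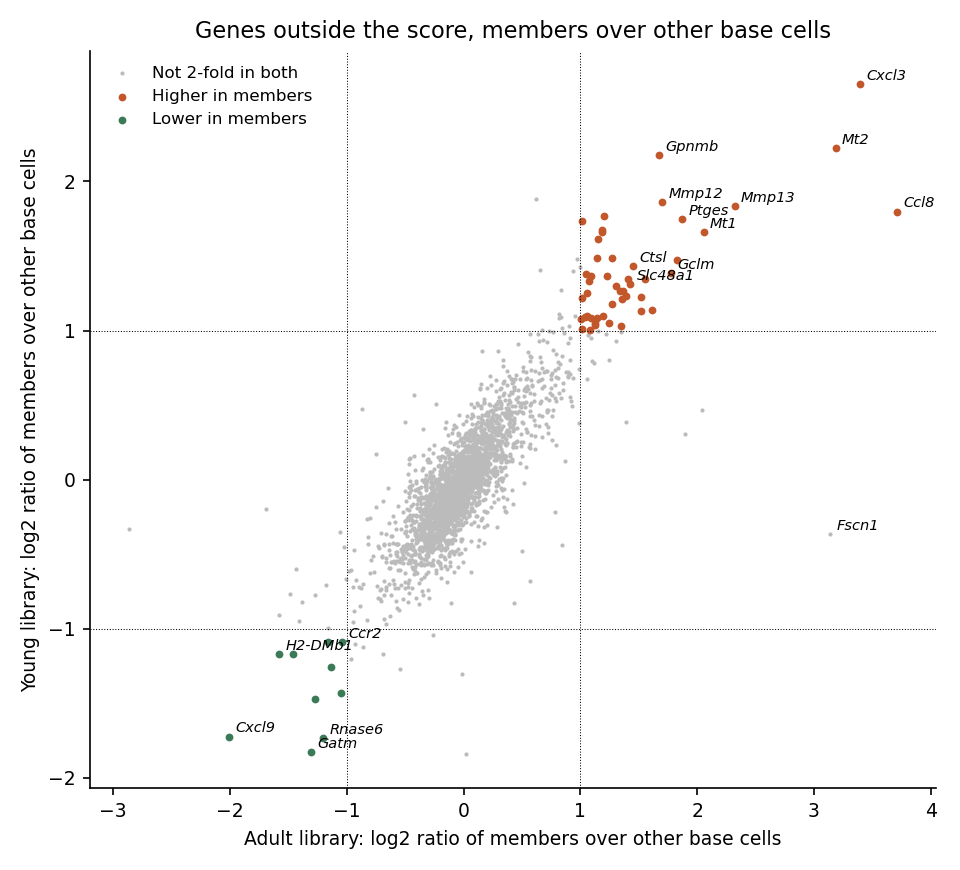
Each point is a gene outside the score, placed by its log2 ratio of members over other base cells in the adult library (x axis) and in the young library (y axis); dotted lines mark 2-fold. The 48 higher genes lie at the upper right, led by Cxcl3 and Mt2, and the 10 lower genes at the lower left, with Cxcl9 furthest out.

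Among chemokines, Cxcl3, a ligand of the neutrophil receptor CXCR2, had 1404 CPM in adult members and 129 CPM in adult others, 10.9-fold higher (10.4 to 11.3), and 510 CPM in young members and 76.9 CPM in young others, 6.63-fold higher (6.34 to 6.93). It lies 12719 bases from Pf4 in the same chemokine cluster on chromosome 5, and it was found in 127 adult and 357 young members. Ccl8, a monocyte chemokine, had 939 CPM in adult members and 66.9 CPM in adult others, and 263 CPM in young members and 72.1 CPM in young others. Few cells carried it: 45 adult and 112 young members held any, and 5 adult cells held 76.1% of the adult members' UMIs. Of 16 inflammatory genes, 5 were higher in members of both libraries by the rule used for lists (at least 1.5-fold with an interval past 1, from 10 CPM), namely Cxcl3, Cxcl1, Cxcl2, Slpi and Il6, and 0 were lower. Over all 6751 genes of that rule, 4.38% were higher and 2.98% lower, with median log2 ratios of -0.02 in both libraries; the list's medians were 0.29 in the adult and 0.52 in the young library. The cytokine genes Il1b and Tnf did not pass, with Il1b at 2394 CPM in adult members and 3319 CPM in adult others, and 3096 CPM in young members and 3365 CPM in young others.

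Metallothioneins bind zinc and copper and rise with metal load and oxidants. Mt2 had 468 CPM in adult members and 47.0 CPM in adult others, a 9.96-fold difference (9.26 to 10.7), and 217 CPM in young members and 42.5 CPM in young others, a 5.10-fold difference (4.78 to 5.44). Mt1, 5513 bases away on chromosome 8, had 2320 CPM in adult members and 554 CPM in adult others, and 1290 CPM in young members and 405 CPM in young others. Both genes thus had the larger fold in the adult library, a difference that was not tested.

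The NRF2 list had 7 of 16 measured genes higher in members and 0 lower, against 4.38% and 2.98% of all 6751 genes. Its median log2 ratios were 0.51 in the adult and 0.47 in the young library. The higher genes were Gclm and Gclc, the 2 subunits of the enzyme that starts glutathione synthesis, with Srxn1, Prdx1, Gsr, Gstm1 and Sqstm1. Gclm had 125 CPM in adult members and 32.8 CPM in adult others, and 126 CPM in young members and 45.0 CPM in young others, which is 3.80-fold (3.35 to 4.30) and 2.79-fold (2.59 to 3.01) higher. Prdx1, a peroxidase of the thioredoxin pathway, had 3422 CPM in adult members and 1301 CPM in adult others, and 5075 CPM in young members and 2162 CPM in young others. Gstm1, a glutathione transferase, had 58.0 CPM in adult members and 15.6 CPM in adult others, and 46.1 CPM in young members and 18.2 CPM in young others. The transporter Slc7a11 and the reductase Txnrd1 did not pass, at 1.197-fold and 1.199-fold in the adult and 1.38-fold each in the young library.

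Of 12 genes of heme and iron, 4 were higher in members and 0 lower, against 4.38% and 2.98% of all 6751 genes. Slc48a1, which carries heme out of the lysosome into the cytosol, had 158 CPM in adult members and 55.6 CPM in adult others, and 252 CPM in young members and 98.4 CPM in young others. Flvcr1, the heme exporter, had 18.5 CPM in adult members and 10.5 CPM in adult others, and 28.0 CPM in young members and 11.6 CPM in young others. The ferritin chains, which store iron, were both higher: Ftl1 had 26509 CPM in adult members and 12445 CPM in adult others, and 35866 CPM in young members and 18583 CPM in young others. Fth1 had 46583 CPM in adult members and 25970 CPM in adult others, and 59285 CPM in young members and 33403 CPM in young others. Blvrb, a biliverdin reductase that acts after heme oxygenase, was 1.66-fold higher in adult and 1.28-fold higher in young members and did not pass, nor did Bach1, the heme-sensing repressor of Hmox1, at 1.03-fold and 0.974-fold.

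Lipid genes were the list with the most higher members, 10 of 20, with 1 lower, against 4.38% and 2.98% of all 6751 genes. Plin2, which coats lipid droplets, had 669 CPM in adult members and 282 CPM in adult others, and 1333 CPM in young members and 514 CPM in young others. Cd36, a scavenger receptor for oxidised lipid, had 95.1 CPM in adult members and 34.5 CPM in adult others, and 134 CPM in young members and 52.9 CPM in young others. Gpnmb, a glycoprotein of lipid-laden macrophages, had 46.0 CPM in adult members and 11.0 CPM in adult others, and 62.4 CPM in young members and 9.89 CPM in young others. Fabp4, a paralog of Fabp5 that lies 187480 bases away on chromosome 3, was 19.96-fold higher in the adult and 13.8-fold higher in the young library, but only 6 adult and 22 young members held it. Hilpda, Lgals3, Abca1, Apoe, Lipa and Nr1h3 were the other higher genes, and the lipoprotein receptor Scarb1 was the lower one, at 0.613-fold and 0.620-fold. The median log2 ratios of the list were 0.63 in the adult and 0.76 in the young library. Of 12 genes of cholesterol synthesis, 0 were higher and 3 were lower, namely Fdps, Cyp51 and Idi1, with list medians of -0.30 and -0.09.

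Lysosomal genes passed as higher in 5 of 17 cases, against 4.38% of all 6751 genes. The list medians were 0.33 in the adult and 0.31 in the young library. Ctsl, the cathepsin L protease, had 851 CPM in adult members and 308 CPM in adult others, and 1246 CPM in young members and 458 CPM in young others. Ctsb, cathepsin B, had 2251 CPM in adult members and 929 CPM in adult others, and 2761 CPM in young members and 1218 CPM in young others. Cd63, a tetraspanin of late endosomes, had 510 CPM in adult members and 204 CPM in adult others, and 301 CPM in young members and 119 CPM in young others. Ctsd and Lgmn also passed, while Ctss, the cathepsin that trims the MHC class II invariant chain, had 0.903 and 0.999 times the level of the others.

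Matrix and clotting genes passed as higher in 5 of 16 cases, against 4.38% of all 6751 genes, with medians of 0.33 and 0.31. Mmp13, a collagenase, had 159 CPM in adult members and 27.8 CPM in adult others, and 84.9 CPM in young members and 20.2 CPM in young others. Mmp12, the macrophage elastase, had 539 CPM in adult members and 162 CPM in adult others, and 310 CPM in young members and 81.6 CPM in young others. The 2 genes lie 61049 bases apart on chromosome 9. The clotting factor gene F7 was 2.67-fold and 4.07-fold higher, the matrix protein gene Thbs1 2.90-fold and 2.35-fold, and Timp2, an inhibitor of matrix proteases, 2.85-fold and 2.62-fold, in the adult and young libraries. Ptges, the enzyme that makes prostaglandin E2, had 41.9 CPM in adult members and 7.83 CPM in adult others, and 55.0 CPM in young members and 12.9 CPM in young others.

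The medians of 20 genes of glycolysis and hypoxia were 0.30 in the adult and 0.40 in the young library. Of these genes, 5 were higher in members and 0 lower, against 4.38% and 2.98% of all 6751 genes. The 5 were Egln3, a prolyl hydroxylase that marks hypoxia-inducible factors, Ero1l, an oxidase of the endoplasmic reticulum, Bnip3, Ndrg1 and the glucose transporter Slc2a1. Egln3 had 149 CPM in adult members and 62.5 CPM in adult others, and 125 CPM in young members and 36.0 CPM in young others. Ero1l had 340 CPM in adult members and 129 CPM in adult others, and 271 CPM in young members and 110 CPM in young others. Glycolytic enzymes were closer together: Gapdh, Pkm, Ldha and Pgk1 were 1.14-fold to 1.41-fold higher and none passed.

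MHC class II genes were lower in members, all 8 of 8 measured, against 2.98% of all 6751 genes. Their median log2 ratios were -1.42 in the adult and -0.89 in the young library. Cd74, the invariant chain, had 4872 CPM in adult members and 11745 CPM in adult others, and 5409 CPM in young members and 9264 CPM in young others. H2-DMb1, a chain of the peptide loader of class II, had 238 CPM in adult members and 720 CPM in adult others, 3.03-fold lower, and 228 CPM in young members and 520 CPM in young others, 2.28-fold lower. Ciita, the class II transactivator, had 16.1 CPM in adult members and 46.5 CPM in adult others, and 10.7 CPM in young members and 29.3 CPM in young others. H2-DMb2 lies beside H2-DMb1 in sequence and place, so the split of reads between them is uncertain. Of 16 MHC class I genes, 0 were higher and 0 lower, with B2m at 10263 CPM in adult members and 8938 CPM in adult others, and 13843 CPM in young members and 11446 CPM in young others.

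Cxcl9, a chemokine induced by interferon gamma that draws T cells, had 93.9 CPM in adult members and 394 CPM in adult others, 4.19-fold lower, and 107 CPM in young members and 363 CPM in young others, 3.41-fold lower. Of 20 interferon genes only Cxcl9 and Gbp2 were lower, against 2.98% of all 6751 genes, and 0 were higher. The medians were -0.22 in the adult and 0.07 in the young library. Cxcl10, a related chemokine, was at 0.816 and 0.777 times the level of the others and did not pass.

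Monocyte genes were mostly lower, with 4 of 12 passing as lower and 1 as higher, against 2.98% and 4.38% of all 6751 genes. Ccr2, the receptor that brings monocytes into tissue, had 166 CPM in adult members and 346 CPM in adult others, and 115 CPM in young members and 251 CPM in young others. Plac8, Ifitm6 and Napsa were the other lower genes, and Vcan the higher one. Ly6c2 had 590 CPM in adult members and 1133 CPM in adult others, and 1311 CPM in young members and 1817 CPM in young others, which passed in the adult library only and so was not counted. The cyclins Ccnd1 and Ccnd2 were 2.37-fold and 2.65-fold lower in adult members and 2.23-fold and 3.09-fold lower in young members. Of 6 cell cycle genes, 3 were lower (Birc5, Stmn1 and Mcm3), while Pcna was 1.32-fold and 1.13-fold higher and did not pass.

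The other genes of the leading 10 lower ones were Gatm, which makes the creatine precursor, with 162 CPM in adult members and 408 CPM in adult others, and 58.2 CPM in young members and 219 CPM in young others; Rnase6, an antimicrobial ribonuclease; Naaa, a lysosomal amidase; and Il1r2, the decoy receptor of interleukin 1. Their folds lay between 2.18 and 4.14 lower in both libraries. With 2000 members the adult log2 ratio of Gatm was -0.59, against -1.31 with 1000. The remaining leading higher genes, Syngr1, Tspan3 and Mrc1, were 2.72-fold to 4.42-fold higher. With Pf4 left out of the score, the log2 ratio of Mrc1, the mannose receptor, was 0.37 in the adult and 1.04 in the young library, against 1.41 and 1.35 with Pf4. The same setting put the log2 ratio of Ccl8 at 1.16 in the adult and 0.91 in the young library, against 3.71 and 1.80.

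Of 11 genes of resident tumour macrophages, 3 were higher in members, namely Mrc1, Folr2 and Ms4a7, and 1 was lower, the receptor tyrosine kinase gene Axl. Over all 6751 genes, 4.38% were higher and 2.98% lower. The list medians were 0.79 in the adult and 0.13 in the young library. Folr2 had 34.7 CPM in adult members and 4.05 CPM in adult others, and 15.9 CPM in young members and 5.09 CPM in young others. Ms4a7 had 559 CPM in adult members and 267 CPM in adult others, and 371 CPM in young members and 230.4 CPM in young others. Members with Sdc1 and no Pf4, described below, differed from this. They had 0 CPM of Folr2 in the adult and 1.07 CPM in the young library, and 14.2 and 4.27 CPM of Mrc1. Both genes were below the others there, which had 37.9 and 7.68 CPM of Mrc1. Ms4a7 had 114 CPM in these adult cells, below the adult others, and 244 CPM in the young ones, above the young others. Axl, which takes part in the uptake of dying cells, had 50.4 CPM in adult members and 119 CPM in adult others, and 40.5 CPM in young members and 85.7 CPM in young others. The complement genes C1qa, C1qb and C1qc did not pass, with C1qb at 2400 CPM in adult members and 2376 CPM in adult others, and 2394 CPM in young members and 2910 CPM in young others.

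Ordered by score, levels differed along the ranks within the members and beyond rank 1000. Slc48a1 in the young library had 345 CPM in ranks 1 to 250, 175 CPM in ranks 751 to 1000, 142 CPM in ranks 1001 to 2000 and 82.2 CPM in ranks 4001 to 9655. Gclm in the same ranks had 154, 117, 73.9 and 35.7 CPM. In the opposite direction, H2-DMb1 had 169 CPM in ranks 1 to 250, 256 CPM in ranks 751 to 1000, 288 CPM in ranks 1001 to 2000 and 622 CPM in ranks 4001 to 9655 of the young library. The adult library had the same order for H2-DMb1, with 92.9, 306, 375 and 815 CPM. For these 3 genes the cells just past the limit lay between the members and the lowest ranks.

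**Figure D3:**
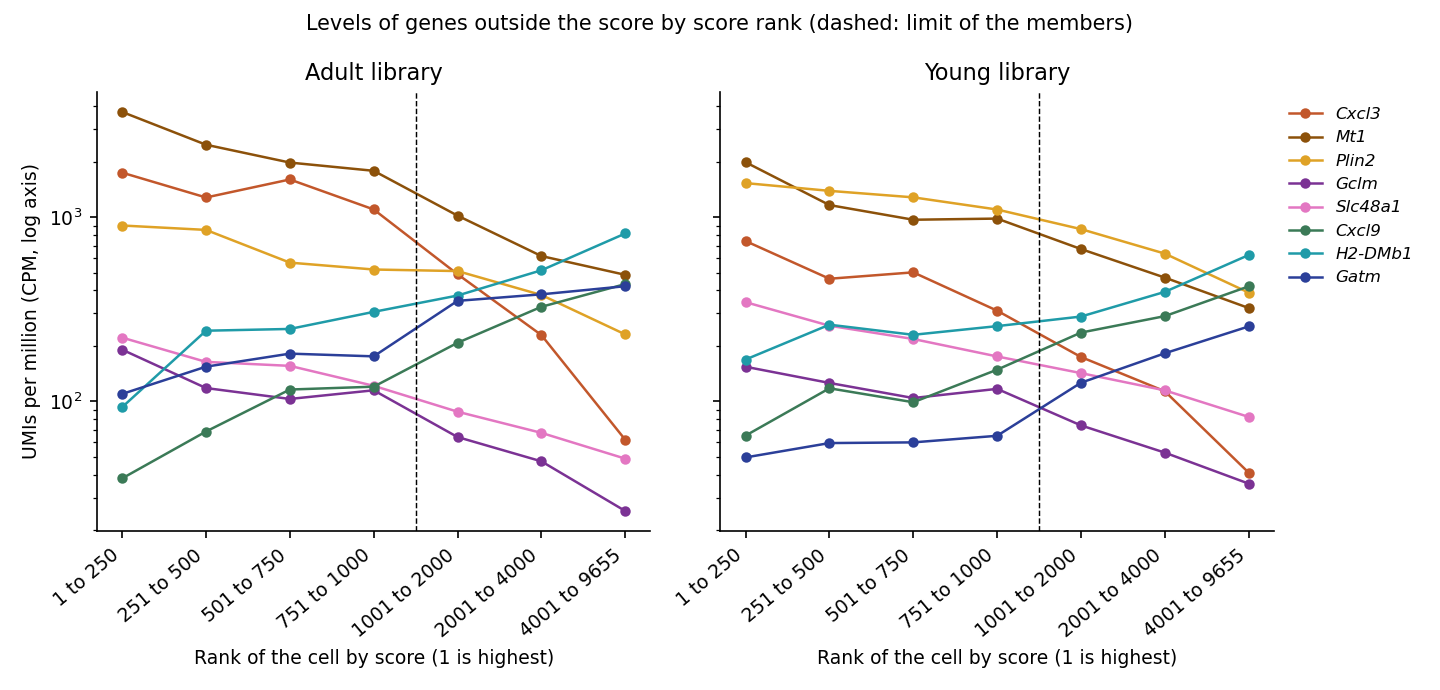
Levels of 8 genes outside the score in CPM (log axis) by score rank, for the adult (left) and young (right) library; each point sums the cells of a rank band, and the dashed line is the limit at rank 1000. Cxcl3, Mt1, Plin2, Gclm and Slc48a1 are highest in ranks 1 to 250, Cxcl9, H2-DMb1 and Gatm are highest in ranks 4001 to 9655.

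Sets of the same size were built the same way from other genes. The 1000 base cells highest in C1qa, C1qb, C1qc and Ms4a7 shared 114 cells with the members, those highest in Mgl2, Mrc1 and Cdh1 shared 84, and those highest in Thbs1, Mcemp1 and Fpr1 shared 209. Gclm had 125 CPM in adult and 126 CPM in young members, against 33.1 and 49.0 CPM in the C1q set, 36.3 and 63.8 CPM in the Mgl2 set and 57.3 and 72.7 CPM in the Thbs1 set. Slc48a1 had 158 and 252 CPM in members, against 73.3 and 131 CPM in the C1q set, 60.2 and 108 CPM in the Mgl2 set and 80.3 and 132 CPM in the Thbs1 set. Cxcl9 had 93.9 and 107 CPM in members, against 371 and 390 CPM in the C1q set, 318 and 298 CPM in the Mgl2 set and 225 and 181 CPM in the Thbs1 set. Of these sets, the members were in both libraries highest in Gclm and Slc48a1 and lowest in Cxcl9, and the Thbs1 set came next in Cxcl9. Other leading genes did not follow that order. Mrc1 had 109 CPM in adult and 27.2 CPM in young members, against 135 and 191 CPM in the Mgl2 set, which was built on it. Mmp12 had 310 CPM in young members and 426 CPM in the young cells of the Mgl2 set, and Ccl8 had 263 CPM in young members and 334 CPM in the young cells of the C1q set. Ptges had 41.9 CPM in adult and 55.0 CPM in young members, close to the 38.3 and 46.5 CPM of the Thbs1 set. Some genes lower in members were also low in the Thbs1 set. Ccnd1 had 44.3 CPM in adult and 58.3 CPM in young members, against 46.5 and 64.4 CPM in the Thbs1 set. Gatm had 162 and 58.2 CPM in members, against 187 and 77.4 CPM there, and H2-DMb1 238 and 228 CPM against 390 and 261 CPM. Ccr2 was further apart, with 166 and 115 CPM in members against 366 and 217 CPM in the Thbs1 set. The sets share cells and have no replicate, so these differences were not tested.

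Within the members, Pf4 and Sdc1 were often found apart. Pf4 without Sdc1 was found in 397 members, Sdc1 without Pf4 in 241, both in 259 and neither in 103. Spearman's rho between the 2 genes was -0.43 over 231 adult and -0.39 over 769 young members, against -0.05 and 0.05 over all base cells of each library. Choice by a summed score lowers rho by itself, since cells need less of 1 gene when they have more of another. Hmox1 and Pf4 likewise had a rho of -0.32 over adult members and 0.13 over adult base cells. How much of the Pf4 and Sdc1 value is built in was not tested, and the points share library and depth. The split was chosen after its values were seen. The Pf4 cells were deeper, with medians of 11231 UMIs in adult and 9809 in young cells, against 7626 and 8990 in the Sdc1 cells, and the part of depth was not tested.

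Of 2730 genes, 22 (0.806%) had at least 2 times the level of Sdc1 cells in Pf4 cells of both libraries, and 27 (0.989%) had at most 0.5 times that level. The Pf4 side held chemokine genes, complement and lipid carriers. Ccl8 had 1845 CPM in adult Pf4 cells and 5.70 CPM in adult Sdc1 cells. In the young library it had 554 CPM in Pf4 cells and 28.3 CPM in Sdc1 cells. As given above, few adult members held most of the adult members' Ccl8 UMIs. Apoe, the lipid carrier of lipoproteins, had 5596 CPM in adult Pf4 cells and 689 CPM in adult Sdc1 cells, and 3839 CPM in young Pf4 cells and 904 CPM in young Sdc1 cells. Mrc1 had 178 CPM in adult Pf4 cells and 14.2 CPM in adult Sdc1 cells, and 50.6 CPM in young Pf4 cells and 4.27 CPM in young Sdc1 cells. The folate receptor gene Folr2, the cholesterol hydroxylase gene Ch25h, Selenop and C1qa were further genes of this side, and C1qa was 19.2-fold higher in the adult and 2.40-fold higher in the young library. Ccl8, Apoe and Mrc1, higher in members as a whole, were lower in the Sdc1 cells than in base cells outside the members. Those had 66.9 CPM of Ccl8 in the adult and 72.1 CPM in the young library, and 1525 and 1277 CPM of Apoe.

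Other genes were higher in the Sdc1 cells. Inhba, which encodes the activin A subunit, had 223 CPM in adult Pf4 cells and 797 CPM in adult Sdc1 cells, and 211 CPM in young Pf4 cells and 750 CPM in young Sdc1 cells. The clotting factor gene F10 had 153 CPM in adult Pf4 cells and 826 CPM in adult Sdc1 cells, and 160 CPM in young Pf4 cells and 399 CPM in young Sdc1 cells. Ero1l had 215 CPM in adult Pf4 cells and 732 CPM in adult Sdc1 cells, and 168 CPM in young Pf4 cells and 471 CPM in young Sdc1 cells. Gpnmb, Ptges, Procr, Timp1, Cd24a and Fabp4 were also on this side. Some genes were close between the 2 groups. Gclm had 104 CPM in adult Pf4 cells and 114 CPM in adult Sdc1 cells. In the young library it had 116 CPM in Pf4 cells and 105 CPM in Sdc1 cells. Arg1, which degrades arginine, had 7808 CPM in adult Pf4 cells and 8766 CPM in adult Sdc1 cells, and 8814 CPM in young Pf4 cells and 7802 CPM in young Sdc1 cells.

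**Figure D4:**
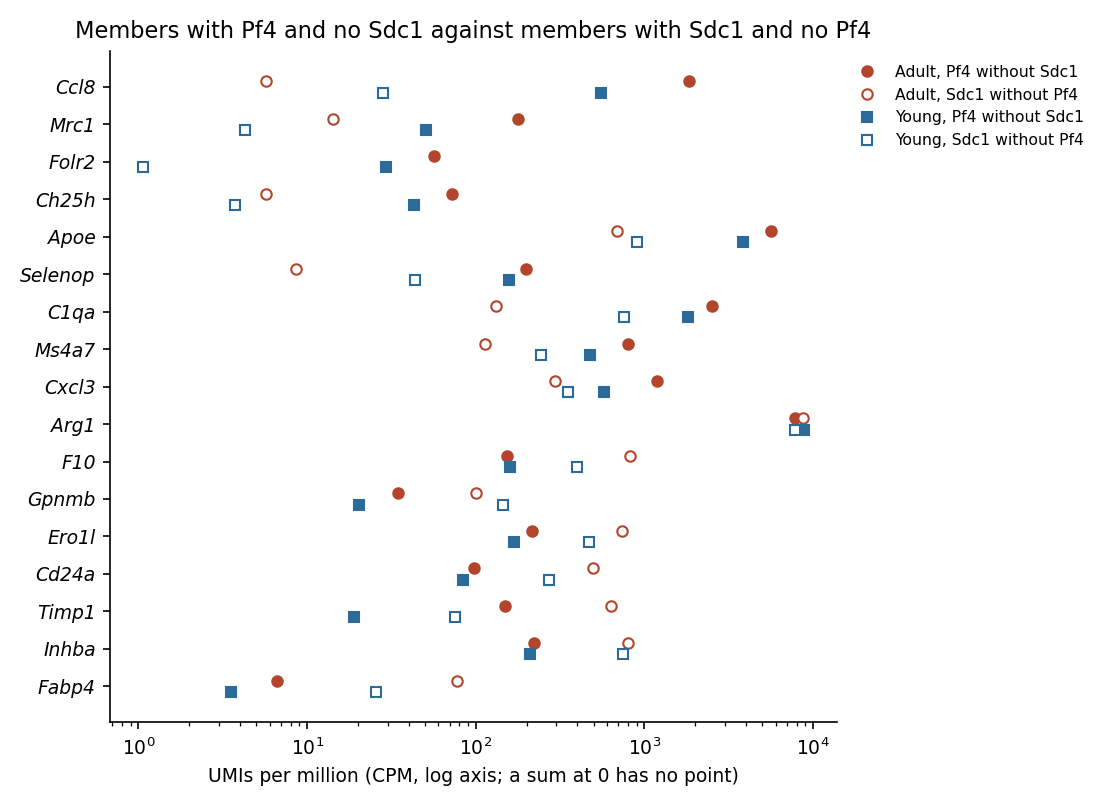
Level in CPM (log axis) of 17 genes in members with Pf4 and no Sdc1 (filled) and members with Sdc1 and no Pf4 (open), adult as circles and young as squares. Ccl8, Mrc1, Folr2, Ch25h and Apoe lie to the right in the Pf4 cells of both libraries, Inhba, Fabp4, Timp1 and Cd24a in the Sdc1 cells, and Arg1 is close in all 4 sums.

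Members were a smaller part of the adult library. They were 5.42% of adult base cells (exact binomial interval 4.76 to 6.14) and 14.3% of young base cells (13.3 to 15.2), a ratio of 0.380 (0.330 to 0.437). Both shares are of mCherry-sorted cells with a Csf1r UMI, and they depend on that gate and on a ranking over both libraries together. The shares are not particular to the members: the Thbs1 set was 5.32% of adult and 14.3% of young base cells. The C1q set was 10.2% and 10.5% of them, and the Mgl2 set 20.9% and 2.04%. The score genes differed among members too. Pf4 was 2.14-fold higher in adult than in young members (2.07 to 2.20), Fabp5 1.59-fold lower (1.54 to 1.64) and Hmox1 1.25-fold lower (1.21 to 1.29). Members with Pf4 and no Sdc1 were 43.7% of adult and 38.5% of young members, and those with Sdc1 and no Pf4 were 19.9% and 25.4%, with intervals that overlap.

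Between adult and young members, 21 of 2384 genes (0.881%) reached 2-fold in the direction of adult and 28 (1.17%) in the direction of young. The higher ones included chemokine, matrix and heat shock genes, and 6 of the 28 lower ones were on the interferon list (Ifit1, Ifit2, Ifit3, Rsad2, Irf7 and Oasl1). Ccl24, an eosinophil chemokine that interleukin 4 induces, had 1589 CPM in adult and 105 CPM in young members, 15.1-fold higher (14.04 to 16.3). The other base cells had the same direction, with 1035 CPM in adult and 24.9 CPM in young cells. Of 13 measured genes of the interleukin 4 list, 8 were higher and 1 lower in adult members, against 5.10% and 6.25% of all 6533 genes, and the list median log2 ratio was 0.79 against -0.03 over all genes. Besides Ccl24 and Mrc1, Mgl2 had 29.8 CPM in adult and 0.764 CPM in young members, and Cdh1, which encodes E-cadherin, had 21.4 CPM in adult and 2.93 CPM in young members. Retnla was the lower gene, with 3 UMIs in adult and 120 UMIs in young members, with 116 of the 120 in 1 cell.

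**Figure D5:**
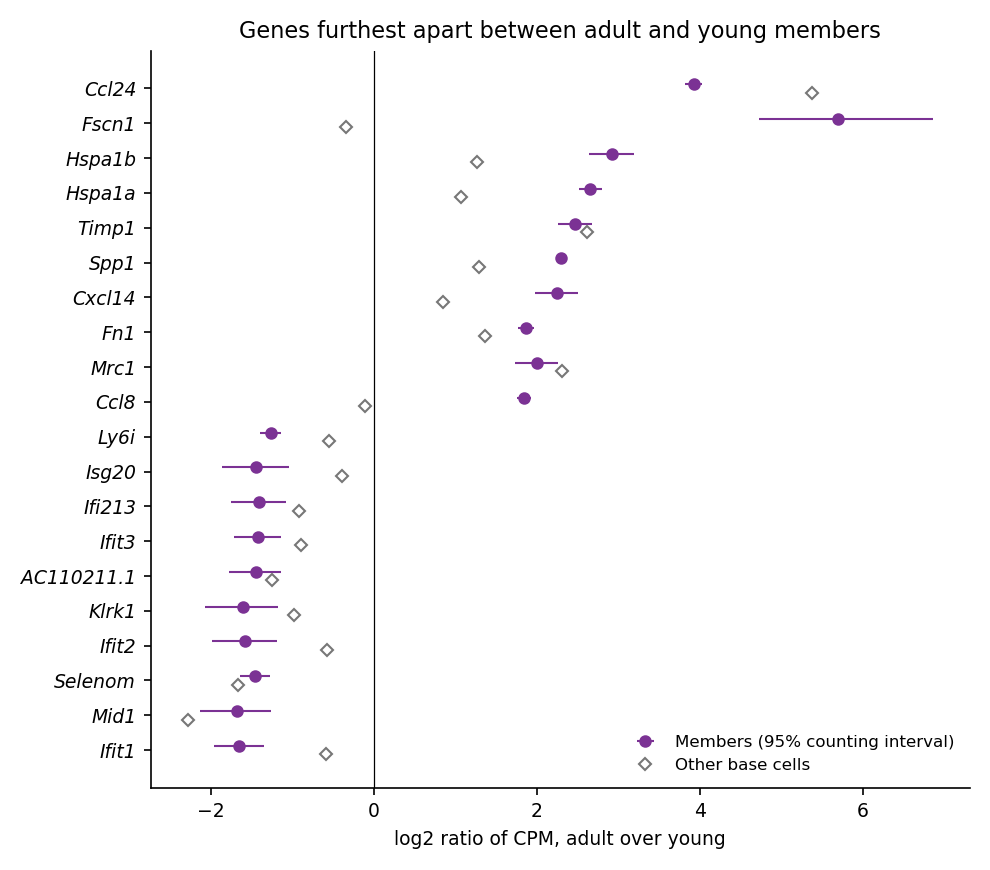
Log2 ratio of CPM, adult over young, for the 10 genes highest and the 10 lowest in adult members; filled circles are members with 95% counting intervals and open diamonds are the other base cells. Ccl24, Timp1, Mrc1, Mid1 and Selenom lie on the same side in members and in other cells. Fscn1 and Ccl8 are higher in adult members and not in the other adult cells, and both rest largely on few adult members.

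Spp1, the gene of osteopontin, had 2401 CPM in adult and 487 CPM in young members, 4.93-fold higher (4.73 to 5.13), and 912 CPM in adult and 372 CPM in young others. Timp1, an inhibitor of matrix proteases, had 213 CPM in adult and 38.7 CPM in young members, and 191 CPM in adult and 31.2 CPM in young others. Fn1, the fibronectin gene, had 748 CPM in adult and 205 CPM in young members, and 922 CPM in adult and 359 CPM in young others. These differences were of similar direction in cells outside the set. Ccl8 was not: it was 3.57-fold higher in adult than in young members (3.36 to 3.79), while the others had 66.9 CPM in adult and 72.1 CPM in young cells. With Pf4 left out of the score, the log2 ratio of Ccl8 between ages was 0.53, against 1.82 with it. The adult value rests largely on few adult members, as given above. Cxcl14, a chemokine of epithelia, was the other chemokine among the leading 10, with 119 CPM in adult and 25.1 CPM in young members.

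The heat shock genes Hspa1a and Hspa1b, which are nearly identical copies and so uncertain one by one, were higher in adult members. Hspa1a had 492 CPM in adult and 78.3 CPM in young members, and 116 CPM in adult and 55.2 CPM in young others. Hspa1b had 154 CPM in adult and 20.4 CPM in young members, and 37.5 CPM in adult and 15.6 CPM in young others. Both genes were thus higher in adult cells in members and in others.

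Fscn1, an actin bundler of mature dendritic cells, had 59.3 CPM in adult and 1.15 CPM in young members. It rested on 3 adult members that held 145 of the 147 adult UMIs. Those 3 cells were the adult members with 10 or more UMIs over Ccr7, Fscn1 and Ccl22, all genes of mature dendritic cells, and there were 2 such cells among the young members, 17 among the adult others and 15 among the young others. Without these cells the log2 ratio was -0.05, against 3.39 with them. The 3 cells entered through Fabp5, with 443 UMIs, and Cd200, with 32 UMIs, and held 4 UMIs of Hmox1.

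Interferon genes were lower in adult members, 13 of 20 against 6.25% of all genes, with 0 higher and a list median log2 ratio of -0.82. Ifit1, which binds foreign RNA caps, had 40.3 CPM in adult and 126 CPM in young members, 3.14-fold lower (2.55 to 3.89), and 55.7 CPM in adult and 83.7 CPM in young others. Ifit3 had 45.5 CPM in adult and 121 CPM in young members, and 55.4 CPM in adult and 103 CPM in young others; its near copy Ifit3b makes the count uncertain. Rsad2, an antiviral enzyme gene, had 205 CPM in adult and 492 CPM in young members, and 161 CPM in adult and 280 CPM in young others. Cxcl9, Cxcl10 and Gbp2 did not pass between ages, with ratios of 0.882, 1.07 and 0.862. The ratios of Ifit1 and Rsad2 were further from 1 in members than in others, and that difference between the cell sets was not tested. With 500 members of each library, the adult over young log2 ratios were -0.95 for Ifit1 and -0.88 for Ifit2, against -1.54 and -1.40.

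Apart from interferon genes, the lower genes included Selenom, an endoplasmic selenoprotein, with 106 CPM in adult and 290 CPM in young members, and Mid1, a ubiquitin ligase gene, with 20.6 CPM in adult and 65.9 CPM in young members. In the other base cells Selenom had 86.9 CPM in adult and 275 CPM in young cells, and Mid1 18.4 and 89.1 CPM. Klrk1, which encodes the receptor NKG2D, had 19.3 CPM in adult and 58.8 CPM in young members, and 59.7 CPM in adult and 118 CPM in young others. The antisense gene AC110211.1 had 37.9 CPM in adult and 103 CPM in young members, and it is uncertain because the strand setting of the counting is not given in the sources used here. Inflammatory genes were lower in adult members in 6 of 16 cases and higher in 1, Cxcl3, with a list median of -0.27. Over all 6533 genes, 6.25% were lower and 5.10% higher. The lipid list had 2 higher and 6 lower of 19, Plin2 among the lower with 669 CPM in adult and 1333 CPM in young members and Apoe among the higher with 3878 CPM in adult and 2541 CPM in young members.

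Some genes that separated members from other cells were close between ages. Gclm had a ratio of adult over young members of 0.989 (0.868 to 1.13), Cxcl9 of 0.882 (0.759 to 1.02) and H2-DMb1 of 1.04 (0.949 to 1.15), and all 3 intervals included 1. Slc48a1 had a ratio of 0.628 (0.562 to 0.700), with 0.565 in the other cells. Of the MHC class II list, 2 of 8 genes were higher in adult members (Ciita and H2-DMb2) and 0 lower, with a median of -0.01. Of the MHC class I list, 0 of 16 passed in either direction. Over all 6533 genes, 5.10% were higher and 6.25% lower. Arg1 had 8325 CPM in adult and 8514 CPM in young members, against 5613 CPM in adult and 4789 CPM in young others. Among 9 checkpoint ligand genes, 0 passed between members and others, and Pdcd1lg2 and Cd80 were higher in adult members, at 1.57-fold and 1.55-fold.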

How the data were processed

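The deposited files hold raw counts of UMIs per gene and barcode as whole numbers, not normalised by the authors. Cell Ranger 3.0.2 and mm10 are named in the submitters' processing notes, while its annotation and barcode filter are not given in these sources. Libraries were taken to their age by title. Members were chosen by the rule given at the start, and UMIs were summed per library and set and scaled to 1000000 (CPM). For CPM the 95% intervals are exact Poisson, for ratios conditional binomial and for shares exact binomial (Clopper-Pearson). As cells of 1 library are no replicates, no p-value was computed. Named genes were the score genes, up to 15 genes in each direction past 2-fold in both libraries by the smaller log2(CPM + 5) ratio, 10 in each direction between ages, and the list members furthest from 0; others are named as further list members or were picked after their values were seen. Mitochondrial, ribosomal protein, haemoglobin and immunoglobulin genes, Csf1r and the construct were left out. The members, the 27 gene lists and the rules were chosen with earlier results of these data known. Positions are from GENCODE M21 on mm10. Doublets were not called; alternatives left out the 6% of deepest base cells and cells with T, NK, collagen or keratin genes. Python 3.11.15, numpy 2.4.6, scipy 1.17.1 and pandas 2.3.3 were used, and the calls were tested on simulated data.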

Additional observations from a re-analysis of the deposited data

Results flagged for a closer look

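Among the named and listed genes with at least 10 CPM in 1 of the 4 sums, 4 were at least 1.5-fold higher in members than in other cells of 1 library and at least 1.5-fold lower in the other library, with intervals past 1; that difference between libraries was not tested, and all 4 rest on few cells. Fscn1 was at 25.8 times the level of the others in adult members and at 0.394 times in young members, with 147 adult and 9 young member UMIs. Cx3cr1, the fractalkine receptor gene, was at 2.15 times in adult and 0.217 times in young members, and 5 adult cells held 79.5% of the 112 adult member UMIs. Saa3, an acute phase gene, was at 0.429 times in adult and 5.89 times in young members, and 5 young cells held 88.8% of the 251 young member UMIs. Mmp9, a gelatinase gene, was at 0.187 times in adult and 3.42 times in young members, with 7 adult and 22 young member UMIs.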

How the results depend on the processing

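The member share by age, a ratio of adult over young of 0.380, stayed below 1 in every alternative that gives one, at 0.312 with 500 members, 0.515 with 2000 members, 0.459 with 2 or more Csf1r UMIs, 0.514 without Hmox1 and 0.489 without Fabp5 in the score, and 0.449 with each score gene divided by its SD. Taking 500 members of each library fixes that ratio, so it gives none. The 48 genes higher in members were 26 with 2000 members and 118 at a 1.5-fold limit. The 10 lower genes were 16 with 500 members, 6 with 2000, 6 with 500 members of each library, 5 without Hmox1 and 16 without Pf4 in the score, 18 from 20 CPM, 20 with no minimum level and 55 at 1.5-fold. The 21 genes higher in adult members were 36 from 20 CPM, 53 with no minimum and 76 at 1.5-fold, and the 28 lower ones were 51 with no minimum and 133 at 1.5-fold. Choosing members in a random part of each cell's UMIs and reading the remainder gave 38 higher and 9 lower genes. Centring moved ratios by -0.06 in both libraries and -0.04 between ages. Of 70 ratios of single genes, 50 stayed past 2-fold under all 23 settings, 20 did not under at least 1, and only Fscn1, adult over young members, changed sign, at -0.37 with 500 members and -0.0496 without cells of 10 or more UMIs over Ccr7, Fscn1 and Ccl22, an alternative added after the data were seen. Of 1610 values of single genes by setting, 848 lay inside the counting interval of the main ratio, 760 lay outside it and 2 changed sign. The counting intervals thus do not cover the choice of settings. Ccr2 in the adult library passed least often, below 2-fold in 15 settings and at -0.62 with 2000 members. Of the 10 genes lower in members, 5 more fell short of 2-fold in the adult library under at least 1 setting: Il1r2 in 9, Ccnd1 in 8, Gatm in 4 (-0.59 with 2000 members), Naaa in 3 and Ccnd2 in 2. Among the genes lower in adult than in young members, Isg20 fell short in 4 settings and Ly6i in 3. Ifi213 and Ifit2 did so in 2 each, and Ifit1 and Ifit3 in 1 each. The cause of these shifts was not tested. No paired analysis was possible because each age is 1 library.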
